A study of Mus musculus with 24 samples.

Results

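The immediate early genes Fos, Fosb, Jun, Junb, Jund, Egr1, Ier2, Atf3, Dusp1 and Nr4a1 were followed one by one in mouse astrocytes and neural stem cells. These 10 genes were listed by name and found in the count table, which holds 49671 genes, through their Ensembl identifiers in the Gencode mouse annotation. All 10 were among the 19691 genes with enough counts to be tested.

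RNA-seq counts were available for 24 libraries, 4 biological replicates in each of 6 groups. Astrocytes were isolated from C57BL/6J mice with magnetic beads against the surface antigen ACSA-2, either from neonatal brains (neoAC, 4 to 8 days of age) or from adult brains (AdAC, 100 to 140 days of age), and each isolation pooled 2 mice. The cell pellets were frozen at once (neoAC direct, AdAC direct) or the cells were grown for 7 to 10 days in astrocyte medium (neoAC CellC, AdAC CellC). Neural stem cells (NSC) came from 1 C57Bl/6 N embryonic stem cell line (GSC-5003) at passages 50 to 60 and grew with 20 ng/ml each of FGF and EGF, and AGES are astrocytes generated from these NSC with 20 ng/ml BMP4 for 3 to 5 days. The labels name no introduced mutation or transgene in any group, and all AGES and NSC replicates are cultures of that 1 line. Neonatal tissue was dissociated with a neural tissue kit, and adult tissue with an adult brain kit followed by removal of debris and red blood cells, so age and dissociation cannot be told apart. The dissociator programs of both kits carry 37 °C in their names. Directly isolated cells were frozen at once after isolation, and cultured cells were taken 7 to 10 days later. Culture and time since dissociation therefore cannot be told apart. The methods state that olfactory bulb and cerebellum were removed for direct isolation of adult cells, and name cerebral tissue for neonatal cells. Whether the same region was used for the adult cultures is not stated, and the part of brain region was not tested. Changes with culture are given below as differences between cultured and directly isolated cells.

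Immediate early genes are transcribed within minutes of a stimulus, from factors already present in the cell and without new protein synthesis. Serum response factor, its ETS partners and the cyclic AMP response element binding protein CREB switch them on below the mitogen-activated protein kinases and calcium, and many of their transcripts are short-lived. Fos and Jun proteins pair through leucine zippers to form the AP-1 transcription factor, Atf3 is a related zipper protein, Egr1 is a zinc finger factor, Nr4a1 is an orphan nuclear receptor, and Dusp1 is a phosphatase that turns the kinases off again. In brain tissue these genes are used as markers of recent stimulation, and they are also known to respond when tissue is dissociated into single cells.

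RefSeq promoters on GRCm38.p6 were used for 8 of the 10 genes, and those of Egr1 and Ier2 were not searched. The 250 bases before the start site were searched on both strands for the CREB site TGACGTCA, the shorter core TGACG (which the full site contains), the AP-1 site TGACTCA, the CArG box bound by serum response factor and the TATA box TATAAA. The core was found in 6 of these 8 promoters (Fos, Fosb, Junb, Atf3, Dusp1 and Nr4a1), against 17.8% of 32851 promoters of the same length. The full CREB site was found only in that of Dusp1 (1.55% of promoters), TATAAA only in that of Fos (12.4%), and neither the AP-1 site (4.46%) nor the CArG box (1.47%) in any of the 8. A match is a description of the letters in this window and no evidence that a factor binds there. The promoters of the Fos family pair, of Nr4a1, which differed most between neoAC direct and AdAC direct, and of Dusp1, which alone holds the full site, are shown 5′ to 3′ on the strand of the gene with the matches to these motifs in capitals. They are Fos at chr12:85473640-85473889 (plus strand), Fosb at chr7:19310046-19310295 (minus strand), Nr4a1 at chr15:101266596-101266845 (plus strand) and Dusp1 at chr17:26508473-26508722 (minus strand).
Fos: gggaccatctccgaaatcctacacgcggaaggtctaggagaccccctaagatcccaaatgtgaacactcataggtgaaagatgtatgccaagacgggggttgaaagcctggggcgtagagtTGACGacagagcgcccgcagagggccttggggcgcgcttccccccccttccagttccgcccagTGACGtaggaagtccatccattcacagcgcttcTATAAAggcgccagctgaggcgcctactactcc
Fosb: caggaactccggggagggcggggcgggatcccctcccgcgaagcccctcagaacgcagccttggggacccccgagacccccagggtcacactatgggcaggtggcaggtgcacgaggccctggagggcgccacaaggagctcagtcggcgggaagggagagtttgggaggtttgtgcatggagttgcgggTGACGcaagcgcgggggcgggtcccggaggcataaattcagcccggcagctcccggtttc
Nr4a1: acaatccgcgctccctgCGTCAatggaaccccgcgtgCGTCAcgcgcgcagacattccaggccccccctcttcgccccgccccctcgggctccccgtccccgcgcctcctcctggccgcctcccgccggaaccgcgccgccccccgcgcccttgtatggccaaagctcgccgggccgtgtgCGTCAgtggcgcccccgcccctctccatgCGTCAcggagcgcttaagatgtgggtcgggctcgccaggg
Dusp1: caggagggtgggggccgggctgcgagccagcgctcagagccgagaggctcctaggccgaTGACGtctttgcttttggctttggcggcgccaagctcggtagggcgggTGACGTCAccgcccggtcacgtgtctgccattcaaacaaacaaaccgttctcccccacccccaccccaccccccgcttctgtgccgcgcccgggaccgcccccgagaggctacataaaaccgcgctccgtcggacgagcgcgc
In Nr4a1 the 4 matches lie on the opposite strand and therefore read CGTCA. The RefSeq starts used for Nr4a1, Dusp1, Atf3 and Jund lie 12577, 53656, 34706 and −1210 bases downstream of the outermost Gencode start of the gene (a negative value lies upstream).

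Jun, Junb, Jund and Ier2 have 1 exon, as have 7.06% of 21866 protein-coding genes, and Nr4a1 has the most exons of the 10, with 8. The 3′ UTR of Fos holds 4 copies of the destabilising pentamer ATTTA in 815 bases, that of Dusp1 holds 4 in 690 bases and that of Nr4a1 holds 3 in 543 bases, and at 4.91, 5.8 and 5.52 per kb these densities lie above the median of 1.33 per kb of 19360 genes. Those of Jun, Junb, Jund, Egr1 and Atf3, at 1.64 to 4.12 per kb, also lie above it. Fosb lies below that median, at 0.466 per kb with 1 copy in 2145 bases, and Ier2 has no copy in 755 bases. Junb and Ier2 both lie on chromosome 8, with 311631 bases between them.

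Levels are given as CPM, counts relative to library size, after TMM scaling, which adjusts library sizes for differences in composition, in the order of replicates 1 to 4, and group levels as mean ± SD (n = 4). Differences are log2 fold changes with their standard error (SE) from the quasi-likelihood F test of edgeR (two-sided) in 1 fit of the 6 groups, and a gene is said to rise, fall or differ where its p, adjusted over all 19691 genes, is under 0.05. Libraries held between 27904126 and 37997368 counts. The smallest value, Fosb in NSC replicate 3, rests on 17 counts. Astrocyte markers (10 genes) summed to 21786 to 24601 CPM in neoAC direct, 16246 to 16965 in AdAC direct, 7627 to 8838 in neoAC CellC, 1002 to 1521 in AdAC CellC, 55369 to 60311 in AGES and 2018 to 2545 in NSC. The 7 neural stem cell markers, highest like the 10 genes in neoAC direct, summed to 6719 to 8519 CPM in neoAC direct, 839 to 979 in AdAC direct, 2085 to 3403 in neoAC CellC, 2086 to 2567 in AdAC CellC, 1538 to 1839 in AGES and 4313 to 5180 in NSC, and none was at the floor of 3 counts in any group. The sum of 8 oligodendrocyte markers was 27135 to 30206 CPM in AdAC direct and 4433 to 11275 CPM in AdAC CellC against 325 to 398 CPM in neoAC direct and 253 to 340 CPM in neoAC CellC, and none of the 8 was at the floor in any of these groups. The 10 microglial markers summed to 32.8 to 101 CPM over all 24 libraries. The 6 mural markers had their highest sum in AdAC CellC, 873 to 1032 CPM, against 449 to 484 in AdAC direct. It was 279 to 611 CPM in neoAC direct and 310 to 667 in neoAC CellC. The astrocyte marker sum of AdAC CellC was the lowest of all groups, below that of NSC. AdAC CellC is thus named by its label, and its changes cannot be assigned to astrocytes alone. In such bulk samples fewer cells of a type and less RNA per cell cannot be told apart, and the part of these markers in the results was not tested.

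Every one of the 10 genes had its highest mean in neoAC direct. AdAC direct came next for 7 of them and AdAC CellC for the other 3 (Junb, Ier2 and Atf3), while NSC had the lowest mean for 7, AGES for Egr1 and Ier2, and neoAC CellC for Jun. The share of all tested genes with these ranks was not counted. Together the 10 genes took 0.932% to 1.33% of all counts in neoAC direct, 0.156% to 0.242% in AdAC direct, 0.0671% to 0.0963% in neoAC CellC, 0.0859% to 0.0990% in AdAC CellC, 0.0513% to 0.0782% in AGES and 0.0199% to 0.0386% in NSC. The ratio of the highest to the lowest group mean was 669 for Fos, 278 for Fosb and 210 for Nr4a1, but 8.87 for Jun and 7.84 for Jund. Per exonic length, Fos led in neoAC direct with a mean of 1723 RPKM, followed by Egr1 with 474 and Jun with 437, and Atf3 was lowest with 49.9. In NSC the order per length was another, with Jun at 49.6 RPKM and Jund at 29.5 above the rest and Fosb lowest at 0.361.

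**Figure D1:**
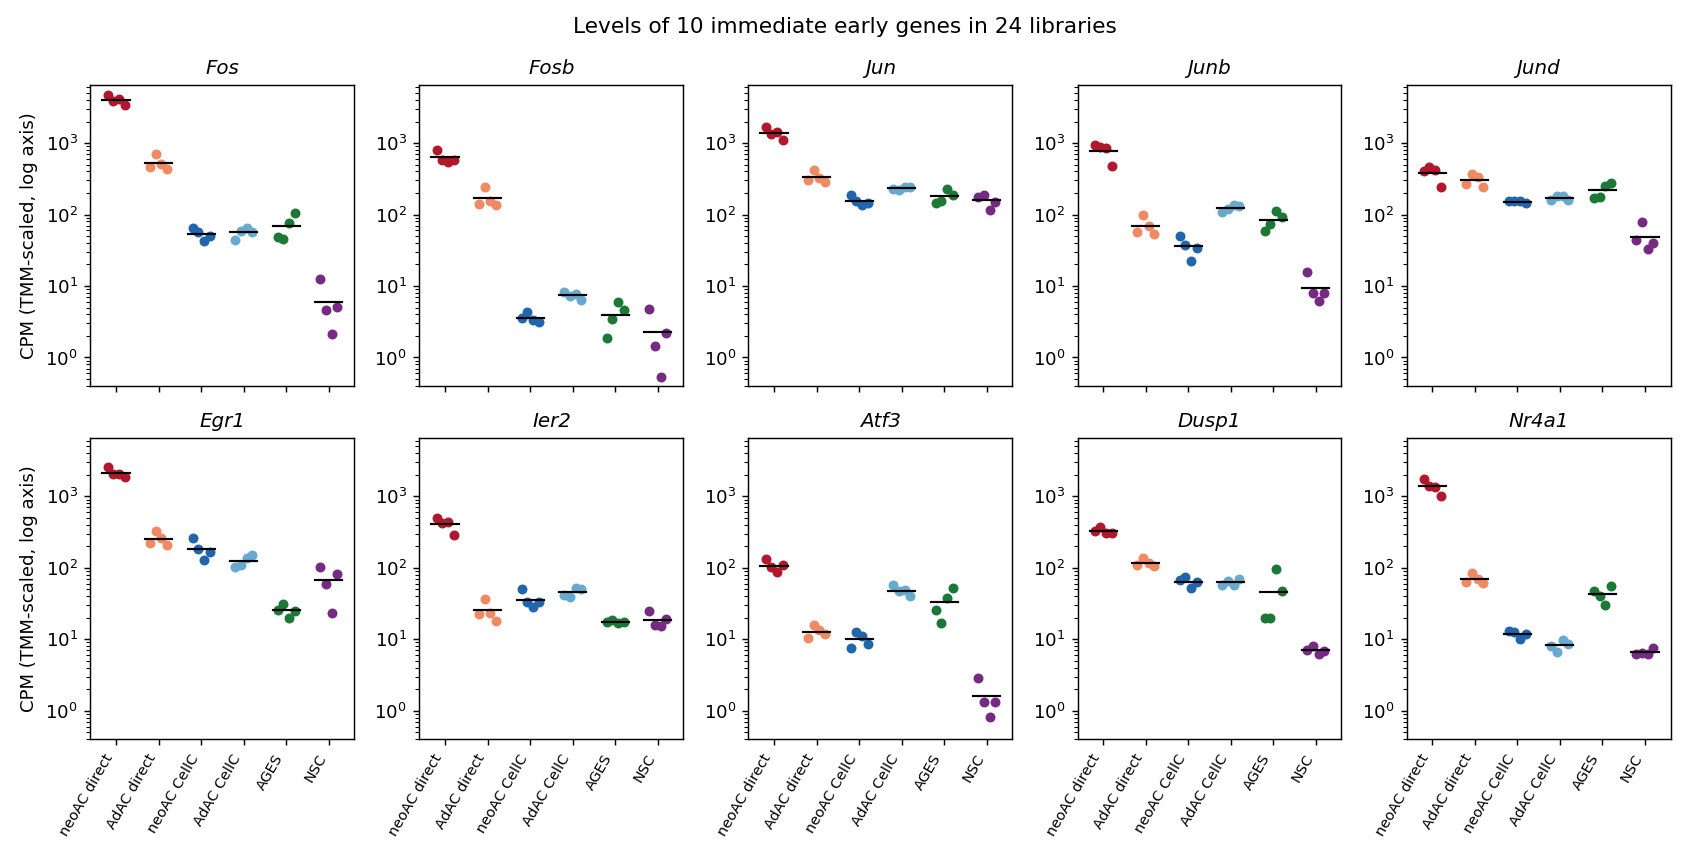
Level of each gene in CPM after TMM scaling (log axis, same scale in all panels) in the 24 libraries. Points are libraries in the order of replicates 1 to 4, bars are the means of the 6 groups. The neoAC direct points, in dark red at the left, have the highest mean in all 10 panels, from 107 CPM for Atf3 to 4053 CPM for Fos.

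The comparisons asked how far the genes differed with age at isolation, with culture and between AGES and the other cultured groups. AGES grew in another medium and on another coating than the cultured astrocytes, with BMP4 added, and came from another mouse substrain. Cell origin cannot be told apart from these. AGES and NSC shared the line and the basal medium but differed in added growth factors and coating. Between neoAC direct and AdAC direct, 9 of the 10 genes were higher in neonatal cells and none lower, where 35.0% of all genes were called higher, 36.4% lower and 71.4% in either direction. The median log2 fold change of the 10 was 3.00, against 0.00 for all genes. With culture of neonatal astrocytes all 10 fell (31.3% of all genes were called lower, 34.4% higher and 65.7% in either direction), with a median of −3.52 against 0.04. When adult astrocytes were cultured, Junb, Ier2 and Atf3 rose and the other 7 fell, where 38.8% of all genes were called higher, 39.2% lower and 78.0% in either direction, with a median of −0.88 against 0.00. The estimate was less negative in adult than in neonatal cells for all 10 genes, or above 0, and the interaction between age and culture was called for all but Jund (35.4% of all genes were called in this direction, 33.2% in the other and 68.6% in either), with a median of 2.98 against 0.05. A positive interaction means that the log2 change with culture was more positive in adult than in neonatal cells. It uses all 4 groups, and so shares the directly isolated libraries with the comparison of ages.

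Between the cultures, 4 genes were lower and 1 higher in neoAC CellC than in AdAC CellC, and 5 were not called (28.5% of all genes were called higher, 35.2% lower and 63.8% in either direction). AGES had 6 of the genes higher and 1 lower than NSC (31.7% of all genes called higher, 34.0% lower, 65.7% in either direction, median 2.44 against 0.00), 4 higher and 2 lower than neoAC CellC (34.1%, 40.5% and 74.6%, median 0.28 against −0.07) and 1 higher and 4 lower than AdAC CellC (31.0%, 45.2% and 76.2%, median −0.48 against −0.23). The shares of called members in these comparisons, 5, 7, 6 and 5 of 10, were near or below those of all genes. The last 3 comparisons share the AGES libraries. The last of these counts was the least firm: it was 3 without AdAC CellC replicate 1 or 3 or without AGES replicate 1 or 2, with no filter on low counts and with DESeq2, and 7 without AGES replicate 3, with a replicate block and with libraries scaled by their size alone.

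**Figure D2:**
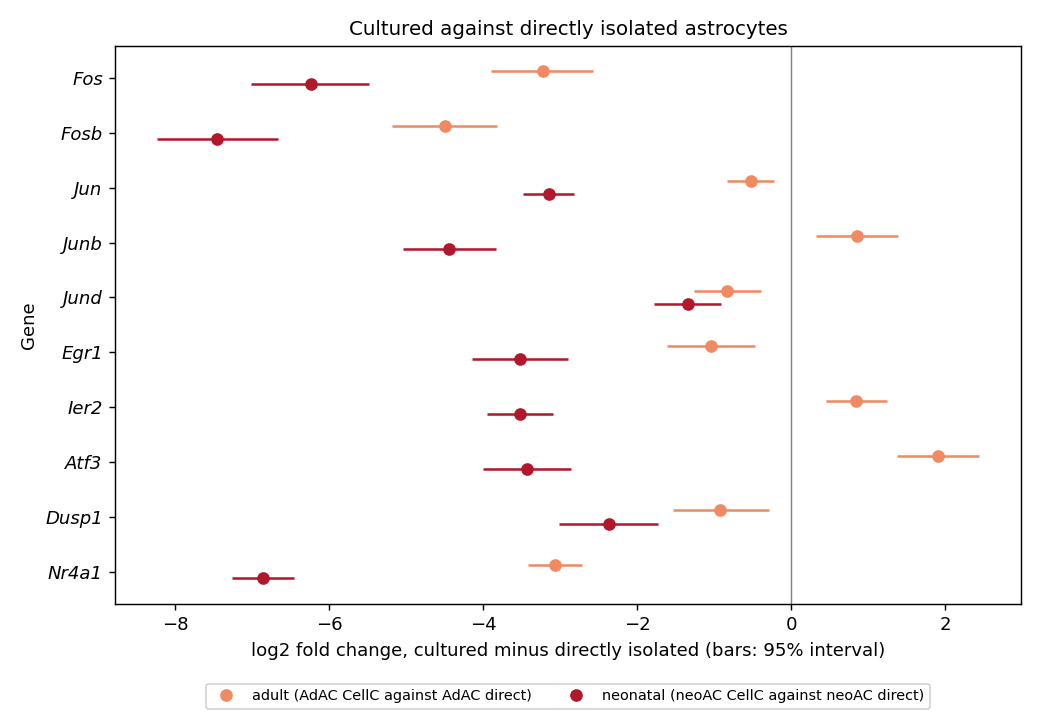
log2 fold change of each gene on culture (cultured minus directly isolated), with 95% intervals from edgeR, for adult (orange) and neonatal (dark red) astrocytes. All 10 neonatal points lie below 0, from −1.34 for Jund to −7.45 for Fosb, and the adult points of Junb, Ier2 and Atf3 lie above 0.

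Fos encodes the AP-1 subunit that gave the family its name, and it lies on the plus strand of chromosome 12 (85473890 to 85477273). Its level was 4765, 3835, 4183 and 3427 CPM in neoAC direct and 468, 698, 511 and 437 CPM in AdAC direct. Every neonatal library was thus far above every adult one, and the difference was 2.94 on the log2 scale (SE 0.33, edgeR adjusted p = 6.19e-08). In culture the levels were 64.5, 57.5, 42.6 and 49.4 CPM for neonatal and 43.3, 59.3, 64.3 and 57.6 CPM for adult cells. These overlapped, and their difference of −0.07 (95% interval −0.69 to 0.55, edgeR adjusted p = 0.861) was not called. With culture, Fos fell by 6.24 on the log2 scale in neonatal cells (SE 0.39, edgeR adjusted p = 4.26e-12) and fell by 3.23 in adult cells (SE 0.34, edgeR adjusted p = 1.30e-08), and the interaction was 3.01 (SE 0.45, edgeR adjusted p = 4.23e-06). AGES held 47.7, 45.7, 75.7 and 104 CPM and NSC 12.4, 4.61, 2.10 and 5.15 CPM. All 4 AGES libraries were above all NSC libraries, by 3.49 on the log2 scale (SE 0.36, edgeR adjusted p = 1.18e-08), and this value was 4.12 without NSC replicate 1, the highest of the 4. AGES did not differ detectably from neoAC CellC (0.35, 95% interval −0.27 to 0.97) or AdAC CellC (0.28, −0.34 to 0.90). By mean level the order was neoAC direct, AdAC direct, AGES, AdAC CellC, neoAC CellC and NSC, and the 3 groups in the middle were not told apart from each other. By Pearson correlation of log2 CPM over the 24 libraries, Trim9 (r = 0.974), Rnf215 (r = 0.969) and Syt11 (r = 0.954) were most alike to Fos.

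Fosb, on the minus strand of chromosome 7 (19302696 to 19310051), encodes a close relative of Fos that also yields a long-lived short protein form. Its level was 795, 583, 546 and 588 CPM in neoAC direct and 140, 242, 155 and 135 CPM in AdAC direct. Replicate 1 stood above the other neonatal libraries and replicate 2 above the other adult ones, but the groups did not overlap and differed by 1.90 (SE 0.30, edgeR adjusted p = 8.20e-06). Cultured cells had little Fosb, with 3.62, 4.27, 3.30 and 3.13 CPM in neoAC CellC and 8.19, 7.28, 7.78 and 6.33 CPM in AdAC CellC. The decrease with culture was the steepest of the 10 genes in both ages, with −7.45 in neonatal (SE 0.40, edgeR adjusted p = 4.47e-13) and −4.50 in adult cells (SE 0.35, edgeR adjusted p = 9.91e-11), with an interaction of 2.95 (SE 0.46, edgeR adjusted p = 8.02e-06). The adult cultures held more of it than the neonatal ones, with a difference of −1.05 for neonatal against adult (SE 0.35, edgeR adjusted p = 0.0133). In the stem cell line the levels were 1.87, 3.45, 5.89 and 4.67 CPM in AGES and 4.82, 1.46, 0.541 and 2.21 CPM in NSC, and these ranges overlapped. The difference between them, 0.84 (95% interval 0.05 to 1.62), was not called (edgeR adjusted p = 0.0716), yet it was called without NSC replicate 1 (1.53, adjusted p = 9.95e-04) and without AGES replicate 1 (1.05, adjusted p = 0.0236). AGES were lower than AdAC CellC (−0.88, SE 0.35, edgeR adjusted p = 0.0282), a call that was lost without AdAC CellC replicate 1 or 3 or AGES replicate 1 or 2 (adjusted p of 0.0556 to 0.0950) and with DESeq2 (0.0583). Against neoAC CellC the difference was 0.16 (−0.57 to 0.89), which was not called. As a share of Fos and Fosb together, per exonic length, Fosb made up 10.6% ± 0.645 in AdAC direct and 11.5% ± 2.25 in NSC but 5.52% ± 0.622 in neoAC direct, 4.85% ± 1.22 in AdAC CellC, 2.49% ± 0.353 in neoAC CellC and 2.19% ± 0.725 in AGES. Most alike over the 24 libraries were Zfyve21 (r = 0.957), Abhd12 (r = 0.957) and Rhcg (r = 0.957).

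Jun, a single-exon gene on the minus strand of chromosome 4 (95049034 to 95052222), encodes the main partner of Fos. It was measured at 1692, 1343, 1433 and 1105 CPM in neoAC direct and at 307, 417, 329 and 281 CPM in AdAC direct. The groups were well apart, by 2.06 (SE 0.16, edgeR adjusted p = 2.82e-11). After culture it stood at 190, 153, 138 and 147 CPM in neoAC CellC and 226, 222, 241 and 239 CPM in AdAC CellC. The fall with culture was thus small in adult cells (−0.52, SE 0.16, edgeR adjusted p = 0.00405) and larger in neonatal cells (−3.15, SE 0.17, edgeR adjusted p = 3.38e-14). The interaction was 2.63 (SE 0.22, edgeR adjusted p = 1.83e-10). Neonatal cultures ended below adult ones (−0.56, SE 0.16, edgeR adjusted p = 0.00296). AGES with 146, 157, 228 and 189 CPM and NSC with 178, 189, 114 and 152 CPM overlapped, and their difference of 0.19 had a 95% interval of −0.12 to 0.49. Among the genes followed, Jun was the one for which NSC lay closest to the neonatal cultures, since neoAC CellC and NSC differed by 0.01 (edgeR adjusted p = 0.947). This did not hold for the adult cultures, where every AdAC CellC library had more Jun than every NSC library. The difference of AGES from neoAC CellC was 0.20 (−0.11 to 0.51) and not called. Against AdAC CellC it was −0.37 (SE 0.16, edgeR adjusted p = 0.0376), past the threshold, but the libraries overlapped, and the call was lost without any 1 of the AdAC CellC libraries or without AGES replicate 1 or 2 (−0.38 to −0.28, adjusted p of 0.0517 to 0.129), and with DESeq2 (0.0648). The closest patterns over the 24 libraries were those of Sp6 (r = 0.951), Pla2g3 (r = 0.949) and Hlcs (r = 0.942).

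Junb lies on the minus strand of chromosome 8 (84974484 to 84978718) and encodes a Jun protein that can restrain Jun in AP-1. Directly isolated cells showed 925, 885, 848 and 485 CPM for neoAC direct and 56.7, 96.9, 68.3 and 52.8 CPM for AdAC direct. Even the lowest neonatal library, replicate 4, was well above the highest adult one, and the difference was 3.52 (SE 0.30, edgeR adjusted p = 4.59e-10). The cultures held 50.8, 37.8, 22.7 and 34.1 CPM in neoAC CellC and 108, 119, 135 and 133 CPM in AdAC CellC. Junb therefore moved in opposite directions, with a fall in neonatal (−4.44, SE 0.31, edgeR adjusted p = 2.73e-11) and a rise in adult cells (0.85, SE 0.27, edgeR adjusted p = 0.00715), without overlap of the libraries in either. The interaction, 5.29 (SE 0.40, edgeR adjusted p = 1.24e-10), was the largest of the 10 genes after that of Atf3. The order of the cultures was reversed from that of the fresh cells, with neoAC CellC lower than AdAC CellC (−1.77, SE 0.28, edgeR adjusted p = 9.03e-06). AGES held 59.7, 74.7, 113 and 91.1 CPM and NSC only 15.7, 7.98, 6.24 and 7.99 CPM. They did not overlap and differed by 3.16 (SE 0.30, edgeR adjusted p = 3.49e-09). AGES exceeded neoAC CellC by 1.22 (SE 0.28, edgeR adjusted p = 4.17e-04). Against AdAC CellC the difference was −0.55 (95% interval −1.08 to −0.02, edgeR adjusted p = 0.0694), and it passed the threshold without AGES replicate 3 (−0.72, adjusted p = 0.0300), with scaling by library size only (−0.78, 0.0114), with at least 10 counts in every library (−0.58, 0.0459) and in a fit of only the groups compared (−0.45, 0.0373). Exons of Prdx2, on the opposite strand, cover 7.52% of the exonic bases of Junb, and the stated counting options name no strand setting. The part of this overlap in the level of Junb was not tested. Over the 24 libraries, Csrnp1 (r = 0.987), Ppp1r15a (r = 0.964) and Atf3 (r = 0.940) had the patterns most like that of Junb.

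Jund, on the plus strand of chromosome 8 (70698949 to 70700616), encodes the Jun protein that resting cells already contain, and it varied least of the 10 genes between groups. Its level was 412, 463, 420 and 246 CPM in neoAC direct and 268, 366, 336 and 246 CPM in AdAC direct. Replicate 4 of neoAC direct was as low as the lowest adult library, and the groups overlapped. The difference of 0.34 (95% interval −0.09 to 0.77) was not called (edgeR adjusted p = 0.168), whereas without that library it was 0.51 (adjusted p = 0.0427). In culture it was 155, 153, 156 and 143 CPM in neoAC CellC and 161, 181, 181 and 159 CPM in AdAC CellC. With culture it fell in neonatal (−1.34, SE 0.22, edgeR adjusted p = 1.44e-05) and in adult cells (−0.83, SE 0.22, edgeR adjusted p = 0.00162). The interaction of 0.51 (95% interval −0.10 to 1.12, edgeR adjusted p = 0.151) was not called in the fit of all groups, and it was 0.67 (adjusted p = 0.0497) without neoAC direct replicate 4. It was also called in a fit of only the groups compared (0.51, adjusted p = 0.0389), and there with a replicate block (0.49, adjusted p = 0.0156). The cultures differed by −0.17 (−0.60 to 0.26), not past the threshold. AGES had 171, 176, 252 and 277 CPM and NSC 44.6, 79.7, 32.5 and 39.7 CPM. These were clearly apart, by 2.16 (SE 0.23, edgeR adjusted p = 1.63e-08). Jund was higher in AGES than in neoAC CellC by 0.53 (SE 0.22, edgeR adjusted p = 0.0342), but the call was lost with DESeq2 (0.0585), with scaling by library size only (0.22, adjusted p = 0.347) and without any 1 of the neoAC CellC libraries or AGES replicate 3 or 4 (0.40 to 0.54, adjusted p of 0.0538 to 0.130). AGES and AdAC CellC differed by 0.36 (−0.07 to 0.79), which was not called, although it was in a fit of only the groups compared (0.46, adjusted p = 0.0198). The noncoding gene Gm11175 covers 52.6% of the exonic bases of Jund on the opposite strand, so the level of Jund is uncertain if strand was not used. The 3 genes most alike to it over the 24 libraries were Os9 (r = 0.966), Dusp8 (r = 0.965) and Dctn2 (r = 0.954).

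The makeup of the Jun family differed between the groups. Per exonic length, Jund made up 57.6% ± 1.87 of the 3 Jun genes in AdAC direct but 22.8% ± 2.27 in neoAC direct, where Jun held 43.8% ± 4.38 and Junb 33.5% ± 2.46. The Junb share was 9.31% ± 0.956 in AdAC direct and 23.5% ± 1.59 in AdAC CellC, and in neoAC CellC it was 10% ± 2.46. NSC were the group in which Jun made up most of the family, 60.3% ± 4.52, and AGES the one with its smallest share, 25.3% ± 1.97. The library ranges of the Jund share, 20.9% to 25.6% in neoAC direct and 55.9% to 60.3% in AdAC direct, did not overlap. These shares were described and not tested, and they rest on the level of Jund with the limit just given.

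**Figure D3:**
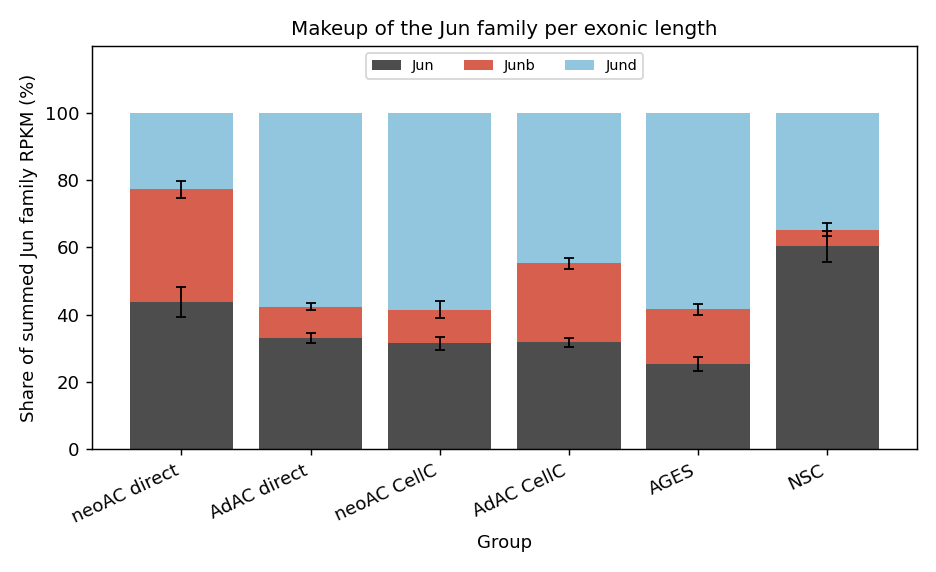
Share of Jun, Junb and Jund in their summed RPKM (CPM per kilobase of exon), as the mean of 4 libraries per group. Error bars are the SD of the Jun share (lower bar) and of the Junb share (upper bar). Jund takes more than Jun in AdAC direct (57.6%), neoAC CellC (58.5%), AdAC CellC (44.7%) and AGES (58.4%), and less in neoAC direct (22.8%) and NSC (34.6%).

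Atf3, on the minus strand of chromosome 1 (191170296 to 191218039), encodes a stress-induced zipper protein of the ATF family that pairs with Jun proteins. Its level was 131, 102, 88.4 and 108 CPM in neoAC direct and 10.3, 15.6, 13.4 and 12 CPM in AdAC direct. The lowest neonatal library was above the highest adult one, with a difference of 3.07 (SE 0.28, edgeR adjusted p = 1.86e-09). Cultures gave 7.48, 12.7, 11 and 8.64 CPM in neoAC CellC and 56.6, 46.9, 48.6 and 39.7 CPM in AdAC CellC. Atf3 fell by 3.43 on the log2 scale with culture of neonatal cells (SE 0.29, edgeR adjusted p = 5.26e-10), and its increase of 1.90 with culture of adult cells (SE 0.27, edgeR adjusted p = 1.48e-06) was the largest of the 3 genes that rose. The interaction of 5.33 (SE 0.40, edgeR adjusted p = 5.99e-11) was the largest of the 10. Cultured neonatal cells were below cultured adult cells (−2.27, SE 0.28, edgeR adjusted p = 2.62e-07). AGES ranged widely, with 25.3, 17.0, 37.9 and 52.1 CPM, whereas NSC had 2.84, 1.34, 0.828 and 1.34 CPM. All AGES libraries exceeded all NSC libraries, and the difference of 4.38 (SE 0.34, edgeR adjusted p = 6.26e-11) was the largest between these groups among the 10 genes. AGES were above neoAC CellC by 1.73 (SE 0.28, edgeR adjusted p = 6.67e-06). The difference from AdAC CellC was −0.54 (95% interval −1.05 to −0.02, edgeR adjusted p = 0.0685), and it passed the threshold without AGES replicate 4 (−0.85, adjusted p = 0.00482) and with scaling by library size only (−0.76, 0.0114). AdAC direct and neoAC CellC, the groups with the next lowest levels above NSC, were not distinguishable (0.36, edgeR adjusted p = 0.244). By Pearson correlation of log2 CPM over the 24 libraries, Ppp1r15a (r = 0.949), Csrnp1 (r = 0.947) and Junb (r = 0.940) were most alike to Atf3.

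Egr1 is on the plus strand of chromosome 18 (34859823 to 34864984) and encodes a zinc finger transcription factor that the kinase ERK induces through serum response factor. The values were 2542, 2033, 2059 and 1874 CPM in neoAC direct and 223, 328, 263 and 209 CPM in AdAC direct. They did not overlap, and the neonatal level was higher by 3.06 (SE 0.31, edgeR adjusted p = 9.37e-09). Egr1 was at 264, 185, 129 and 165 CPM in neoAC CellC and 102, 111, 136 and 149 CPM in AdAC CellC. It fell with culture in neonatal (−3.52, SE 0.32, edgeR adjusted p = 1.76e-09) and in adult cells (−1.04, SE 0.29, edgeR adjusted p = 0.00261), with an interaction of 2.48 (SE 0.41, edgeR adjusted p = 1.55e-05). The cultures overlapped, and their difference of 0.58 (95% interval 0.01 to 1.15) was not called (edgeR adjusted p = 0.0848), but it was without neoAC CellC replicate 3 (0.74, adjusted p = 0.0414) and with DESeq2 (0.69, adjusted p = 0.0283), with DESeq2's size factors, with at least 10 counts in every library and in a fit of only the groups compared (0.67 to 0.71, adjusted p of 0.0224 to 0.0428). AGES held 26.0, 30.8, 19.5 and 24.8 CPM and NSC 104, 59.5, 23.6 and 81.9 CPM. Egr1 was the only one of the 10 genes called lower in AGES than in NSC (−1.41, SE 0.30, edgeR adjusted p = 2.41e-04), although NSC replicate 3 lay within the AGES range. AGES were also below both astrocyte cultures, with −2.88 against neoAC CellC (SE 0.31, edgeR adjusted p = 2.20e-08) and −2.30 against AdAC CellC (SE 0.31, edgeR adjusted p = 4.90e-07), with no overlap. Dusp6, an ERK-induced phosphatase of ERK and the effector gene with the steepest fall from NSC to AGES, went from 478 to 5.22 CPM (log2 fold change −6.51, SE 0.23, edgeR adjusted p = 1.71e-17). Of the 30 listed effectors and feedback regulators, 15 were higher and 10 lower in AGES than in NSC. A link between Dusp6 and the level of Egr1 was not tested. Most alike over the 24 libraries were Ryr1 (r = 0.973), Emx2 (r = 0.972) and Slitrk5 (r = 0.963). None of the other 9 genes was among the 50 most alike to Egr1.

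Ier2, on the minus strand of chromosome 8 (84661331 to 84662852), encodes a small nuclear protein whose function is less well known. In the fresh cells it was at 501, 427, 436 and 286 CPM in neoAC direct and 22.9, 37.1, 23.6 and 18.2 CPM in AdAC direct. The difference, 4.02 (SE 0.22, edgeR adjusted p = 1.55e-13), was the largest between ages among the 10 genes after that of Nr4a1. Cultured cells had 49.7, 32.9, 28.4 and 32.8 CPM (neoAC CellC) and 41.9, 39.1, 51.5 and 50.5 CPM (AdAC CellC). It fell in neonatal cells (−3.52, SE 0.22, edgeR adjusted p = 1.63e-12) and rose in adult cells (0.84, SE 0.20, edgeR adjusted p = 6.59e-04), and the interaction was 4.37 (SE 0.29, edgeR adjusted p = 7.17e-12). Between the cultures the difference was −0.35 (95% interval −0.74 to 0.04, edgeR adjusted p = 0.134), and it was called without neoAC CellC replicate 1 (−0.54, adjusted p = 0.0236). The lowest levels were those of AGES, 17.6, 18.5, 16.6 and 17.6 CPM, and NSC, 24.8, 16.0, 15.3 and 19.0 CPM. The AGES libraries lay close together, the NSC libraries on both sides of them, and the difference of −0.10 had an interval of −0.50 to 0.31. AGES were lower than neoAC CellC (−1.03, SE 0.21, edgeR adjusted p = 1.01e-04) and AdAC CellC (−1.38, SE 0.21, edgeR adjusted p = 2.32e-06). The closest patterns over the 24 libraries were those of Kcnj6 (r = 0.968), Sowahc (r = 0.963) and Lcmt2 (r = 0.959).

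Dusp1, on the minus strand of chromosome 17 (26505590 to 26562128), encodes a nuclear phosphatase that inactivates p38, JNK and ERK. It measured 331, 369, 311 and 311 CPM in neoAC direct and 110, 135, 118 and 106 CPM in AdAC direct. The groups were separate but closer than for most of the other genes, with a difference of 1.49 (SE 0.32, edgeR adjusted p = 2.73e-04). Its cultured levels were 66.5, 73.8, 52.2 and 62.7 CPM in neoAC CellC and 57.2, 66.2, 57.0 and 68.5 CPM in AdAC CellC. They overlapped fully, with a difference of 0.04 (95% interval −0.58 to 0.66). The change with culture was −2.37 in neonatal (SE 0.33, edgeR adjusted p = 1.75e-06) and −0.92 in adult cells (SE 0.32, edgeR adjusted p = 0.0125), and the interaction 1.46 (SE 0.45, edgeR adjusted p = 0.00661). AGES were at 19.8, 19.5, 97.4 and 47.7 CPM, with replicate 3 well above the others, and NSC at 6.97, 8.16, 6.14 and 6.79 CPM. The groups did not overlap and differed by 2.72 (SE 0.35, edgeR adjusted p = 5.72e-07), or by 2.05 without AGES replicate 3. The comparisons with the cultures turned on that library: with it, AGES differed by −0.47 from neoAC CellC (−1.09 to 0.16) and by −0.43 from AdAC CellC (−1.05 to 0.19), neither called, and without it the differences were −1.14 (edgeR adjusted p = 5.47e-05) and −1.10 (edgeR adjusted p = 7.46e-05). With scaling by library size only, the first was also called with that library in (−0.78, adjusted p = 0.0292). Over the 24 libraries, Rabggta (r = 0.955), Vcam1 (r = 0.955) and Nrcam (r = 0.947) had the patterns most like that of Dusp1.

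Nr4a1, on the plus strand of chromosome 15 (101254269 to 101274795), encodes the orphan nuclear receptor Nur77. Its level was 1757, 1400, 1347 and 1017 CPM in neoAC direct and 62.6, 85.0, 70.6 and 60.8 CPM in AdAC direct. The difference of 4.31 (SE 0.18, edgeR adjusted p = 2.82e-16) was the largest between the ages among the 10 genes. In culture its level was low, with 13.2, 12.5, 10 and 12 CPM in neoAC CellC and 8.10, 6.70, 9.82 and 8.56 CPM in AdAC CellC. It fell by 6.86 on the log2 scale in neonatal cells (SE 0.21, edgeR adjusted p = 1.78e-18) and fell by 3.07 in adult cells (SE 0.18, edgeR adjusted p = 7.65e-14), with an interaction of 3.79 (SE 0.24, edgeR adjusted p = 1.05e-12). It was the single gene of the 10 that was higher in neonatal than in adult cultures, by 0.52 (SE 0.17, edgeR adjusted p = 0.0119), without overlap. AGES held 47.0, 40.9, 30.0 and 55.9 CPM and NSC 6.19, 6.37, 6.17 and 7.59 CPM. AGES were higher than NSC by 2.72 (SE 0.18, edgeR adjusted p = 1.10e-12). They were also above both astrocyte cultures, by 1.87 against neoAC CellC (SE 0.17, edgeR adjusted p = 4.39e-10) and by 2.39 against AdAC CellC (SE 0.18, edgeR adjusted p = 6.35e-12), and Nr4a1 was the only one of the 10 called higher in AGES than in AdAC CellC. Its 6 group levels were the most distinct of the 10, since among neighbours in the order only AdAC CellC and NSC, the lowest pair, were not told apart (0.34, edgeR adjusted p = 0.0935). The 3 genes most alike to it over the 24 libraries were Gramd4 (r = 0.976), Perm1 (r = 0.967) and Zfp592 (r = 0.963).

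**Figure D4:**
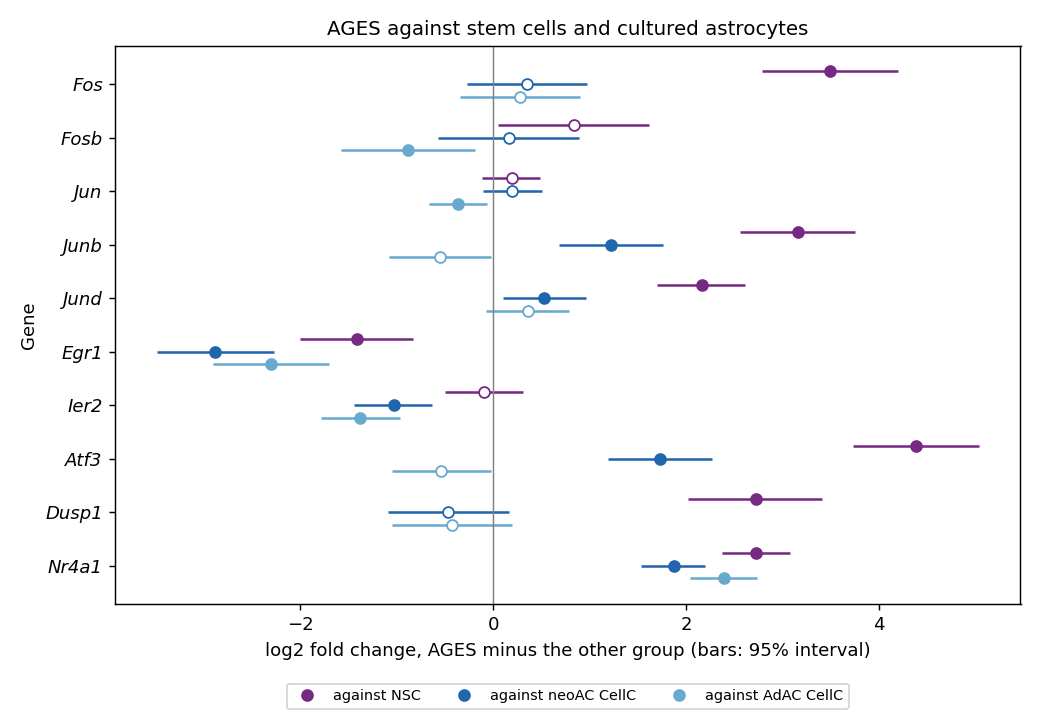
log2 fold change of each gene in AGES (AGES minus the other group) with 95% intervals from edgeR, against NSC (purple), neoAC CellC (dark blue) and AdAC CellC (light blue). Open symbols have an adjusted p of 0.05 or more. Nr4a1 lies above 0 in all 3 comparisons (1.87 to 2.72) and Egr1 below 0 in all 3 (−2.88 to −1.41).

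Replicates of a group also differed from each other in step. AdAC direct replicate 2 had the highest value of its group for all 10 genes, and replicate 4 the lowest for 9. NSC replicate 3 was the lowest NSC library for all 10, and replicate 1 the highest for 6. In neoAC direct, replicate 1 was highest for 8 and replicate 4 lowest for 8, with summed levels of 13851 and 9448 CPM. AGES replicates 3 and 4 were both above replicates 1 and 2 for 7 of the 10 genes (Fos, Fosb, Jun, Junb, Jund, Atf3 and Dusp1). The labels do not give the days of BMP4 for each library, and their part was not tested. How often other genes took these orders of replicates was not counted. Among the neoAC direct libraries, replicate 4 had the highest astrocyte marker sum (24601 CPM) and the lowest ependymal marker sum (696 CPM against 1127 to 1377), and replicate 2 had the highest endothelial (260 CPM against 63.1 to 103) and mural sums (611 CPM against 279 to 408). AdAC direct replicate 2 had the lowest oligodendrocyte marker sum of its group (27135 CPM against 28555 to 30206). The part of these cells in the differences between replicates was not tested. With any single library left out, all 10 genes remained called in both comparisons of cultured with directly isolated cells, and 9 or 10 between the directly isolated groups.

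**Figure D5:**
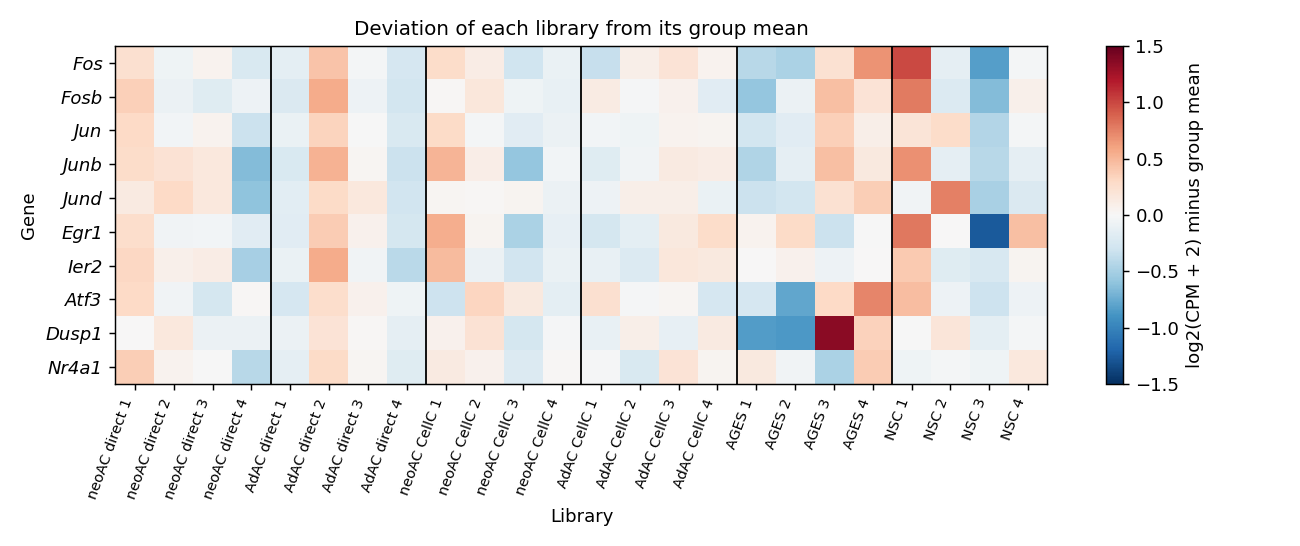
Deviation of each library from the mean of its group, in log2(CPM + 2), for the 10 genes (rows) and 24 libraries (columns), red above and blue below the mean. The column of AdAC direct replicate 2 is red and that of NSC replicate 3 blue for all 10 genes.

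Across the 24 libraries the 45 pairs of genes had Pearson correlations of log2 CPM between 0.493 and 0.948, with a median of 0.814. These libraries fall into 6 groups, so the values mostly describe the group levels. The genes most alike to each of the 10 were sought among 12576 genes with at least 10 CPM in a group.

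Other genes of the pathway were taken from 5 lists. The shares of all genes called are given here for comparison with the counts of each list. Between neoAC direct and AdAC direct, 35.0% were higher and 36.4% lower. With culture of neonatal cells 34.4% rose and 31.3% fell, and with culture of adult cells 38.8% rose and 39.2% fell. Between AGES and NSC, 31.7% were higher and 34.0% lower. Of 20 other immediate early genes, mostly transcription factors, 18 were higher and none lower in neoAC direct than in AdAC direct (median 2.95 against 0.00 for all genes). In neonatal culture 17 fell and 1 rose (median −2.18 against 0.04), and in adult culture 14 rose and 1 fell (median 1.52 against 0.00). The 10 genes and this list thus had medians of opposite sign in adult culture. Ier3, an inhibitor of cell death, rose most there, from 2.64 to 51.3 CPM (4.28, SE 0.40, edgeR adjusted p = 2.10e-09), and Bhlhe40, a basic helix-loop-helix repressor, was the one that fell, from 155 to 106 CPM (−0.55, SE 0.22, edgeR adjusted p = 0.0314). Klf4, a zinc finger factor, fell most in neonatal culture, from 217 to 8.36 CPM (−4.70, SE 0.18, edgeR adjusted p = 1.19e-16), and Ier5 was the one that rose, from 33.9 to 56.8 CPM (0.74, SE 0.14, edgeR adjusted p = 4.51e-05). Egr4 had the highest log2 fold change in neoAC direct, with 5.41 CPM against 0.0890 CPM in AdAC direct, a level of few counts. Between AGES and NSC, 9 of the 20 were higher and 5 lower (median 0.63 against 0.00), from Cebpd at 3.85 (SE 0.34, edgeR adjusted p = 9.56e-10) to Myc at −3.13 (SE 0.15, edgeR adjusted p = 7.01e-16).

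Of 30 immediate early effectors and feedback regulators, 24 were higher and 5 lower in neoAC direct than in AdAC direct (median 1.70), 4 rose and 21 fell with culture of neonatal cells (median −1.03), and 21 rose and 3 fell with culture of adult cells (median 1.23). Ccn2, a secreted matrix protein induced by cell spreading and TGF-β, rose most in both cultures, from 11.6 to 451 CPM in neonatal (5.28, SE 0.29, edgeR adjusted p = 3.27e-13) and from 3.50 to 668 CPM in adult cells (7.58, SE 0.33, edgeR adjusted p = 1.92e-15). Rhob, a small GTPase, fell most in adult culture, from 655 to 338 CPM (−0.95, SE 0.23, edgeR adjusted p = 7.22e-04), and the phosphatase Dusp2 fell most in neonatal culture, from 4.83 to 0.156 CPM. In the direct comparison of ages the extremes were Dusp5, a phosphatase of ERK, at 15.4 against 0.274 CPM (5.81, SE 0.30, edgeR adjusted p = 1.50e-14) and the kinase Sgk1 at 16.9 against 113 CPM (−2.75, SE 0.36, edgeR adjusted p = 5.50e-07). AGES had 15 of the 30 higher and 10 lower than NSC (median 0.29), with Gadd45b, a stress sensor, highest at 134 against 1.88 CPM (6.16, SE 0.19, edgeR adjusted p = 2.54e-19).

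Of the 10 other AP-1 and ATF partners tested, from 11 listed, 8 were higher and 2 lower in neoAC direct than in AdAC direct (median 1.00), 5 rose and 5 fell in neonatal culture (median 0.02), and 8 rose and 1 fell in adult culture (median 1.86). Fosl2, another Fos family member, led the comparison of ages with 83.8 against 5.15 CPM (4.02, SE 0.30, edgeR adjusted p = 4.47e-11) and that of AGES with NSC with 128 against 17.4 CPM (2.88, SE 0.27, edgeR adjusted p = 2.79e-09). Fosl1 rose most in adult culture, from 0.0452 to 45.6 CPM, but 57.2% of its exonic bases overlap Ccdc85b on the opposite strand. Atf4 fell most in neonatal culture, from 434 to 90.5 CPM (−2.26, SE 0.11, edgeR adjusted p = 3.32e-15).

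Of 20 upstream regulators, 12 were higher and 5 lower in neoAC direct than in AdAC direct (median 0.39). In neonatal culture 5 rose and 6 fell (median −0.08), and in adult culture 14 rose and 3 fell (median 0.49). Of all genes, 71.4%, 65.7% and 78.0% were called in either direction in these comparisons. The ETS factor Elk3 had the highest value in the comparison of ages (41.1 against 4.85 CPM, 3.08, SE 0.12, edgeR adjusted p = 2.10e-17) and in adult culture (3.74, SE 0.12, edgeR adjusted p = 5.72e-19). Of 14 heat shock genes, 4 were higher and 6 lower in neoAC direct than in AdAC direct (median −0.17 against 0.00), beside 35.0% higher and 36.4% lower among all genes. Its extremes were the chaperone genes Hspe1 (0.67, SE 0.09, edgeR adjusted p = 6.97e-07) and Hsph1 (−1.91, SE 0.14, edgeR adjusted p = 4.00e-12). With culture, 8 heat shock genes rose and 3 fell in neonatal cells (median 0.41), and 8 rose and 1 fell in adult cells (median 0.64). Among all genes, 34.4% rose and 31.3% fell in neonatal culture, and 38.8% rose and 39.2% fell in adult culture.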

How the data were processed

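Stranded mRNA libraries were sequenced in pairs by the authors, who aligned the reads to GRCm38 with STAR 2.7.3a and counted them over the exons of Gencode vM12 with featureCounts. These raw counts, which are whole numbers without normalization, were deposited. The counting options that the authors state name the exon feature and the gene identifier and no strand setting, and featureCounts ignores strand by default. Positions, symbols, exonic lengths and transcripts came from Gencode vM21 on GRCm38, promoters from RefSeq (GRCm38.p6).

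In R 4.3.3 with edgeR 4.0.16, genes were filtered with filterByExpr, scaled by TMM and fitted with the robust quasi-likelihood model in 1 fit of the 6 groups, without covariates. Tests were two-sided with Benjamini-Hochberg adjustment over 19691 genes and a threshold of 0.05. The SE was obtained as the absolute log2 fold change over the root of the F statistic. Library totals were 27904126 to 37997368 counts. Replicates are separate isolations or cultures, and the tests rest on the spread between them. RPKM are CPM per kilobase of exon. The genes, lists and tests were chosen with earlier results of these data known. Besides the 10 genes, the text names the 3 genes most correlated with each over the 24 libraries (log2 CPM, prior count 2), the highest and lowest called gene of a list in a comparison, and markers. Genes that overlap another on the opposite strand were named after their values were seen. Same-numbered replicates did not deviate together (correlations of −0.0953 to 0.106), so samples were not paired. Replicates differed beyond counting noise (chi-square per degree of freedom of at least 6.02).

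Alternatives were DESeq2's size factors, library size only, no filter, a floor of 10 counts per library, the Wald test of DESeq2 1.42.0, a fit of only the groups compared with and without a replicate block, and leaving out each replicate.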

Additional observations from a re-analysis of the deposited data

Results flagged for a closer look

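Among the 60 sets of 4 libraries (10 genes in 6 groups), 2 held a library far from the other 3 by Dixon's test, which flags about 1 in 20 by chance. Fosb in neoAC direct replicate 1 was 795 CPM, where the others were 546 to 588 CPM. Nr4a1 in NSC replicate 4 was 7.59 CPM, where the others were 6.17 to 6.37 CPM.

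The change with culture differed between adult and neonatal astrocytes for 9 of the 10 genes by the interaction in edgeR (adult minus neonatal log2 fold change, two-sided, adjusted over all genes). It was 5.33 for Atf3 (adjusted p = 5.99e-11), 5.29 for Junb (1.24e-10) and 4.37 for Ier2 (7.17e-12), the 3 genes that rose in adult culture and fell in neonatal culture. Among the genes that fell in both, it was 3.79 for Nr4a1 (1.05e-12), 3.01 for Fos (4.23e-06), 2.95 for Fosb (8.02e-06), 2.63 for Jun (1.83e-10), 2.48 for Egr1 (1.55e-05) and 1.46 for Dusp1 (0.00661). These genes share the directly isolated and cultured libraries of both ages, and 68.6% of all genes had a called interaction.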

How the results depend on the processing

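The counts of called genes kept within 1.5 times their value under every alternative in all comparisons but AGES against AdAC CellC, where 5 called genes became 3 with no filter and 3 with DESeq2, and between 3 and 7 with 1 library left out. Values that changed sign were all uncalled. Fos between neoAC CellC and AdAC CellC (−0.07) was 0.04 with DESeq2's size factors, 0.01 with library size only, 0.01 with no filter, 0.07 with at least 10 counts in every library, 0.04 with the DESeq2 test, 0.02 with only the groups compared, 0.02 with the replicate block and −0.17 to 0.04 with 1 library left out. With library size only, Fosb and Jun between AGES and neoAC CellC were −0.15 and −0.11. Ier2 between AGES and NSC was 0.01 with at least 10 counts, 0.02 with the replicate block and −0.18 to 0.07 with 1 library left out. With 1 library left out, Dusp1 between the cultures was −0.03 to 0.14 and Fosb between AGES and neoAC CellC was −0.09 to 0.38. The cause was not tested.

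Replicate numbers do not pair the samples, and 1 correlation in the comparison of directly isolated cells passed 0.1. A fit of only the groups compared already called the Jund interaction (0.51, adjusted p = 0.0389) and, between AGES and AdAC CellC, Junb (−0.45, 0.0373) and Jund (0.46, 0.0198). With the replicate block added these were 0.49 (0.0156), −0.48 (0.00214) and 0.43 (0.0274), and Jund between neoAC direct and AdAC direct was called with the block (0.35, 0.00559). Library size only moved the median of all genes to 0.27 between neoAC CellC and neoAC direct, −0.37 between AGES and neoAC CellC and −0.44 between AGES and AdAC CellC.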
